A study of Homo sapiens with 6 samples.

Results

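The 29 protein-coding genes described here were close to absent from parental PC9 cells and measurable in gefitinib-resistant PC9-GR cells. They were chosen by their values: the mean of the 3 PC9 libraries had to lie below 0.2 FPKM (fragments per kilobase of transcript scaled to the mapped fragments of the library) and the mean of the 3 PC9-GR libraries had to reach 1 FPKM. Rows on chromosomes 3, 14 and 18, symbols that start with SLC or ZNF, and MMP9, PDGFRB, STARD4, CCL2 and CD74 were left out by the same rule. Of the 1705 rows in the deposited table, 1375 are typed as protein coding, 37 of those met both limits, and 29 remained after the exclusions. Because the rule read the PC9 and PC9-GR values themselves, the difference between the lines is given for these genes as a description, with no test.

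PC9 is a human lung adenocarcinoma line of epithelial type, and both lines carry the EGFR exon19 del genotype given in the labels. PC9-GR was derived from PC9 by raising gefitinib, an inhibitor of the EGFR kinase, in steps from 0.5 to 10 µM. It was then kept at 10 µM, and the drug was withdrawn for 7 days before RNA was taken. Each line gave 3 libraries of total RNA from independent cultures. All PC9-GR libraries come from a single derived line, so what belongs to resistance, to long culture in the drug and to the descent of that line cannot be told apart. The labels do not say whether the line is 1 clone.

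Many genes of muscle, neurons, blood cells, placenta and other lineages are kept off in an epithelial cell, often by closed chromatin, by Polycomb marks or by DNA methylation at the promoter. A promoter rich in CG dinucleotides, known as a CpG island, is usual for widely used genes and for developmental regulators, while many tissue-restricted genes start from CG-poor promoters. The roles given to single genes below are textbook functions, assigned after their values were seen.

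"Silent" and "on" both need a qualification from the values. Mean FPKM of the 29 genes in PC9 ran from 0.0188 to 0.199 with a median of 0.141, and only ROBO4 and C8orf46 had a PC9 library at 0.001 FPKM, the lowest value the table lists. The genes were therefore low in PC9 and mostly not at the floor. In PC9-GR their means ran from 1.00 to 3.22 FPKM with a median of 1.70, against a median of 2.92 FPKM for the 694 other coding rows with a higher ratio. The genes were thus detected in PC9-GR at a low level. A rise in RNA per cell and a rise in the share of cells that make the RNA cannot be told apart in bulk libraries.

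All 29 genes had every PC9-GR library above every PC9 library, a pattern that 48.3% of all rows of the table share, and nothing is read from it because the rule used these values. The ratio of means ran from 6.33 to 62.7 with a median of 17.0. The lowest PC9-GR library exceeded the highest PC9 library by 1.40-fold to 22.3-fold, with a median of 9.10-fold. Every PC9-GR library reached 1 FPKM for 20 of the genes, every PC9 library stayed under 0.2 FPKM for 19, and 12 genes did both. Summed over the 29 genes, FPKM was 3.70, 3.64 and 3.61 in the PC9 libraries and 50.4, 59.5 and 56.3 in the PC9-GR libraries, so the sums were close together within each line. The sum over the whole table went the other way, between 28346 and 30541 FPKM in the PC9 libraries and between 16705 and 17114 FPKM in PC9-GR.

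**Figure D1:**
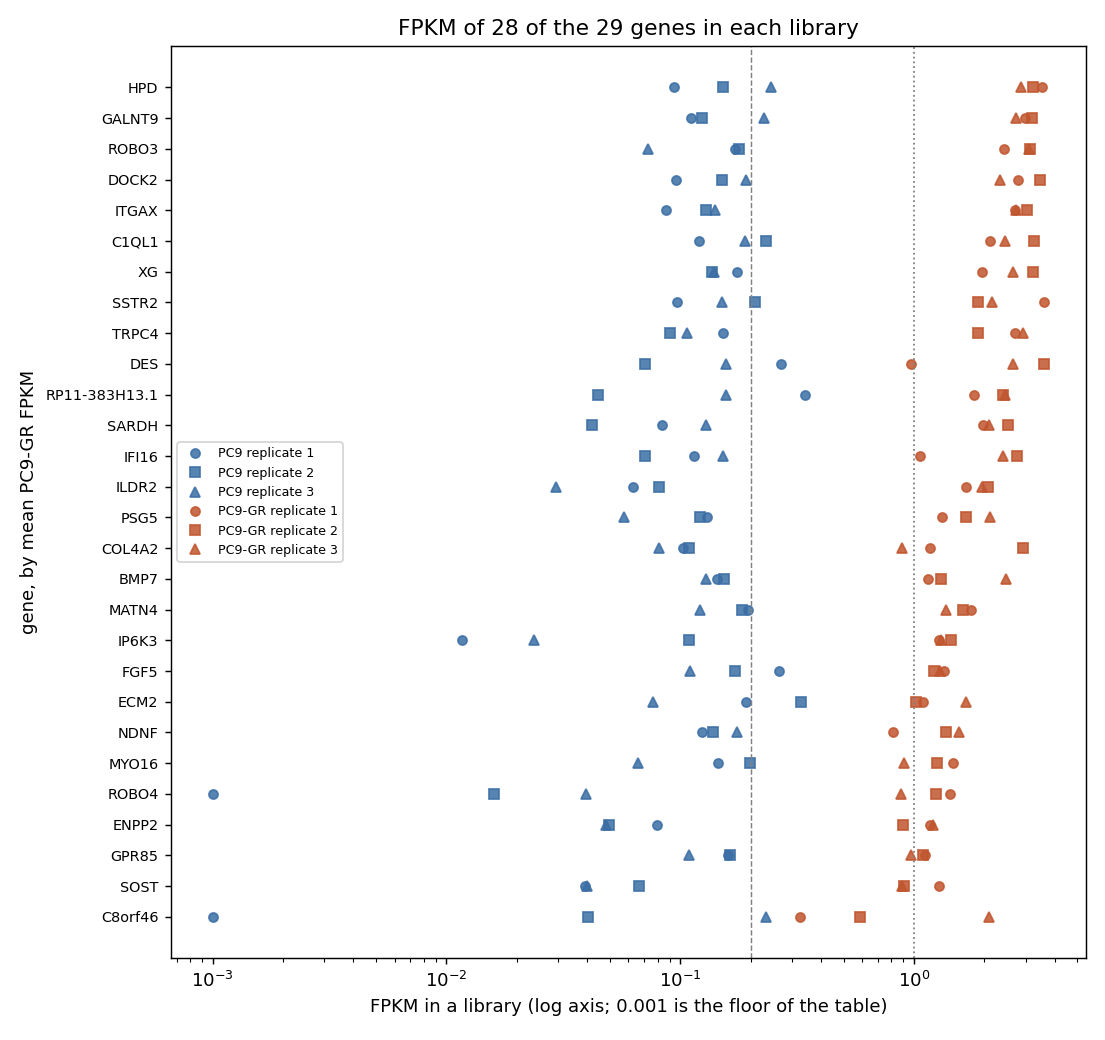
FPKM (log axis) of 28 of the 29 genes in every library, with 3 PC9 and 3 PC9-GR points per gene and genes ordered by mean PC9-GR FPKM. The PC9 and PC9-GR points do not overlap for any gene shown, and C8orf46 has the widest PC9-GR spread, from 0.325 to 2.10 FPKM.

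The whole-table test serves as background, and the authors had already selected every row of the table as changed in these libraries. Of 1207 rows tested with limma, 584 were called higher in PC9-GR, which is 48.4%, and 619 were called lower, which is 51.3%. With the libraries scaled to equal totals, 60.9% of the calls were higher, against 48.5% as deposited. Of the 29 genes, 20 passed the filter of 1 FPKM in 3 libraries, through PC9-GR only, and all 20 were called higher. Nothing is read from that count, since both the rule and the filter had already required the difference. In the authors' deposited table, 27 of the 29 have a q-value under 0.05, and 23 share the smallest q-value of the table, 0.000285, with 1020 rows in all. SSTR2 has a q-value of 0.0298 there, and ECM2 and ROBO4 lie above 0.05 with 0.0992 and 0.111.

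The enzymes held the gene with the highest level in PC9-GR, HPD, which turns 4-hydroxyphenylpyruvate into homogentisate in the breakdown of tyrosine, a pathway of the liver. HPD measured 0.0936, 0.152 and 0.244 FPKM in the PC9 libraries and 3.54, 3.24 and 2.87 FPKM in the PC9-GR libraries, a ratio of means of 19.7. GALNT9, a transferase that starts O-linked sugar chains on proteins, measured 0.111, 0.124 and 0.228 FPKM in PC9 and 2.99, 3.19 and 2.72 FPKM in PC9-GR. SARDH, the mitochondrial enzyme that converts sarcosine to glycine, measured 0.0834, 0.0421 and 0.129 FPKM in PC9 and 1.98, 2.53 and 2.10 FPKM in PC9-GR. For these 3 genes the PC9-GR libraries lay close together, while their distance from the PC9 libraries follows from the rule.

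IP6K3, a kinase that makes inositol pyrophosphates and is best known from muscle, measured 0.0117, 0.109 and 0.0237 FPKM in PC9 and 1.28, 1.43 and 1.30 FPKM in PC9-GR. One PC9 library was well above the other two for this gene. ENPP2 encodes autotaxin, the secreted enzyme that makes lysophosphatidic acid, and measured 0.0797, 0.0495 and 0.0481 FPKM in PC9 and 1.17, 0.898 and 1.21 FPKM in PC9-GR. The 5 enzymes had a median PC9-GR mean of 2.20 FPKM and belong to different pathways.

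Surface receptors and adhesion molecules formed the largest class with 7 genes and a median PC9-GR mean of 2.55 FPKM. ROBO3 and ROBO4 are 2 members of the Roundabout family of SLIT receptors and lie side by side on chromosome 11, 2220 bp apart in the table. ROBO3, which steers axons across the midline of the nervous system, measured 0.171, 0.178 and 0.0728 FPKM in PC9 and 2.43, 3.15 and 3.12 FPKM in PC9-GR. ROBO4, which is known from blood vessel endothelium, measured 0.0010, 0.0160 and 0.0395 FPKM in PC9 and 1.42, 1.24 and 0.880 FPKM in PC9-GR. ROBO4 was the lowest of all 29 genes in PC9 and had the highest ratio of means, 62.7. That ratio rests on values near the floor, and in the authors' deposited table ROBO4 has the largest q-value of the 29, 0.111.

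Guidance genes as a group went both ways. Counts of listed genes in the table, here and below, include the 1 or 2 of the 29 genes that a list holds. Counts of tested and called genes and list medians include them only where they passed the filter. As deposited, ROBO4, COL4A2 and DES did not pass, and at a filter of 5 FPKM none of the 29 did. Their direction was fixed by the rule, so nothing is read from their part in a count or median. Of 49 listed semaphorins, ephrins, netrins, SLIT ligands and receptors, 13 are in the table, 8 were tested, 6 were called higher and 2 lower. Without the filter 7 were called higher and 6 lower of all 13, and at a filter of 5 FPKM 2 and 2 of 4. The 7 include ROBO3 and ROBO4, which are higher by the rule, and the 4 include neither. The median difference on the log2(FPKM + 1) scale was 1.14 as deposited, 0.63 without the filter and 0.08 at 5 FPKM. Over all tested rows the median was -0.63, and its sign turned to 0.29 without the filter, 0.89 with equal library totals and 0.42 to 0.46 without 1 of the PC9 libraries, so no list is ranked against it. SLIT2, a ligand of the family, was called higher, from 5.63 ± 0.361 to 16.1 ± 2.71 FPKM (SD, n = 3, limma adjusted p = 8.05e-06), and so was SEMA3E, from 0.515 ± 0.133 to 13.4 ± 2.50 FPKM. SEMA6B was also called higher, from 0.583 to 2.71 FPKM, while SEMA3F was called lower, from 8.59 to 2.70 FPKM. ROBO2, the next relative in the table, did not pass the filter for the test and measured 0.983, 0.627 and 1.08 FPKM in PC9 and 0.147, 0.276 and 0.254 FPKM in PC9-GR. Its libraries were ordered the opposite way to those of ROBO3 and ROBO4.

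ITGAX encodes CD11c, the integrin alpha chain of dendritic cells and macrophages that pairs with the beta chain ITGB2. It measured 0.0871, 0.128 and 0.141 FPKM in PC9 and 2.70, 3.04 and 2.74 FPKM in PC9-GR, so its PC9-GR libraries were among the closest of the 29. Its partner ITGB2 was called higher, from 0.301 ± 0.159 to 2.00 ± 0.185 FPKM (SD, n = 3, limma adjusted p = 6.86e-06). ITGAM, the alpha chain of another leukocyte integrin with the same partner, stands 22241 bp from ITGAX in the table and was called higher too, from 0.570 ± 0.583 to 7.25 ± 2.12 FPKM (SD, n = 3, limma adjusted p = 1.28e-05). ITGAM was uneven in PC9, where its libraries measured 0.169, 1.24 and 0.303 FPKM.

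Integrins as a group did not share one direction. Of 43 listed integrins and leukocyte adhesion genes, 14 are in the table and 11 were tested, of which 6 were called higher and 5 lower. With the libraries scaled to equal totals these counts were 6 and 3. At a filter of 5 FPKM they were 3 and 5. The list's median difference was 0.61 on the log2(FPKM + 1) scale, -0.27 with median-ratio scaling and -1.01 at 5 FPKM. ICAM1 was called higher, from 7.81 to 26.2 FPKM, while the epithelial integrin chains ITGB4, from 154.8 to 48.9 FPKM, and ITGB8, from 19.8 to 4.20 FPKM, were called lower under each setting run.

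XG, the gene of the Xg blood group antigen, measured 0.174, 0.136 and 0.140 FPKM in PC9 and 1.96, 3.23 and 2.65 FPKM in PC9-GR. SSTR2, a receptor for the hormone somatostatin, measured 0.0973, 0.210 and 0.151 FPKM in PC9 and 3.60, 1.89 and 2.16 FPKM in PC9-GR. One PC9-GR library of SSTR2 stood well above the others. ILDR2, an immunoglobulin-like protein of cell contacts, measured 0.0625, 0.0809 and 0.0294 FPKM in PC9 and 1.68, 2.08 and 1.95 FPKM in PC9-GR, a ratio of means of 33.0. GPR85, an orphan receptor that is abundant in brain, measured 0.160, 0.163 and 0.109 FPKM in PC9 and 1.12, 1.10 and 0.973 FPKM in PC9-GR. It was the lowest of the 7 in PC9-GR, with little spread between libraries.

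Secreted ligands and antagonists made up 6 genes, with a median PC9-GR mean of 1.46 FPKM. BMP7, a bone morphogenetic protein that signals to SMAD factors, measured 0.144, 0.153 and 0.129 FPKM in PC9 and 1.15, 1.30 and 2.48 FPKM in PC9-GR. Its highest PC9-GR library was 2.16 times its lowest. FGF5, a fibroblast growth factor that ends the growth phase of hair, measured 0.264, 0.171 and 0.110 FPKM in PC9 and 1.35, 1.21 and 1.30 FPKM in PC9-GR. FGF5 had the smallest PC9-GR spread of the 29 genes, a coefficient of variation of 5.16%. SOST encodes sclerostin, an antagonist of WNT signals made by bone cells, and measured 0.0392, 0.0667 and 0.0400 FPKM in PC9 and 1.27, 0.906 and 0.886 FPKM in PC9-GR.

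C1QL1, a secreted C1q-like protein of synapses, measured 0.120, 0.233 and 0.190 FPKM in PC9 and 2.12, 3.27 and 2.45 FPKM in PC9-GR, the highest mean of this class. PSG5, a pregnancy-specific glycoprotein made by the placenta, measured 0.131, 0.122 and 0.0572 FPKM in PC9 and 1.31, 1.67 and 2.10 FPKM in PC9-GR. The PSG genes are near-identical copies of each other, so reads of PSG5 may be shared with its relatives. The neighbouring PSG9 measured 0.201 FPKM on average in PC9 and 0.480 FPKM in PC9-GR. NDNF, a secreted factor first known for its effect on neurons, measured 0.124, 0.138 and 0.175 FPKM in PC9 and 0.811, 1.37 and 1.56 FPKM in PC9-GR. PC9-GR replicate 1 fell under 1 FPKM for NDNF and lay below the other two.

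Ligands outside the 29 genes behaved differently from one another. Of 119 listed growth factors and receptor kinases, 26 are in the table and 20 were tested, of which 10 were called higher and 10 lower. The 10 called higher include FGF5 and BMP7, whose direction the rule had fixed, so the even split does not describe the other genes alone. Scaling to equal totals gave 12 higher and 5 lower of 22 tested. The list's median difference was 0.17 on the log2(FPKM + 1) scale and had no stable sign: it was 0.58 without PC9 replicate 1 and 0.51 without PC9 replicate 2, 0.06 without PC9 replicate 3 and 0.07 without PC9-GR replicate 3, and -0.56 and -0.52 without PC9-GR replicates 1 and 2. It was 0.83 with equal totals, 0.43 without the filter, 0.03 with median-ratio scaling and -0.98 at a filter of 5 FPKM. FGF2 was the closest to FGF5 in its pattern within this family, with 0.230, 0.222 and 0.216 FPKM in PC9 and 6.65, 5.52 and 5.89 FPKM in PC9-GR, and was called higher (limma adjusted p = 1.72e-07, every PC9-GR library above every PC9 library, n = 3). FGFR1, a receptor for FGF ligands, was called higher, from 14.1 ± 1.15 to 37.9 ± 4.48 FPKM (SD, n = 3). NRG1, a ligand of ERBB receptors, was called higher as well, from 2.02 to 14.4 FPKM, and the receptor EPHA4 was called lower, from 9.28 to 2.16 FPKM. FGF1 was called lower as deposited, from 2.56 to 0.987 FPKM (limma adjusted p = 0.0213), and was not called with equal library totals (adjusted p = 0.300) or without any 1 of the PC9-GR libraries. BMP4 was called lower, from 15.2 ± 4.71 to 5.06 ± 1.59 FPKM (SD, n = 3), while its relative BMP7 was among the genes described here.

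**Figure D2:**
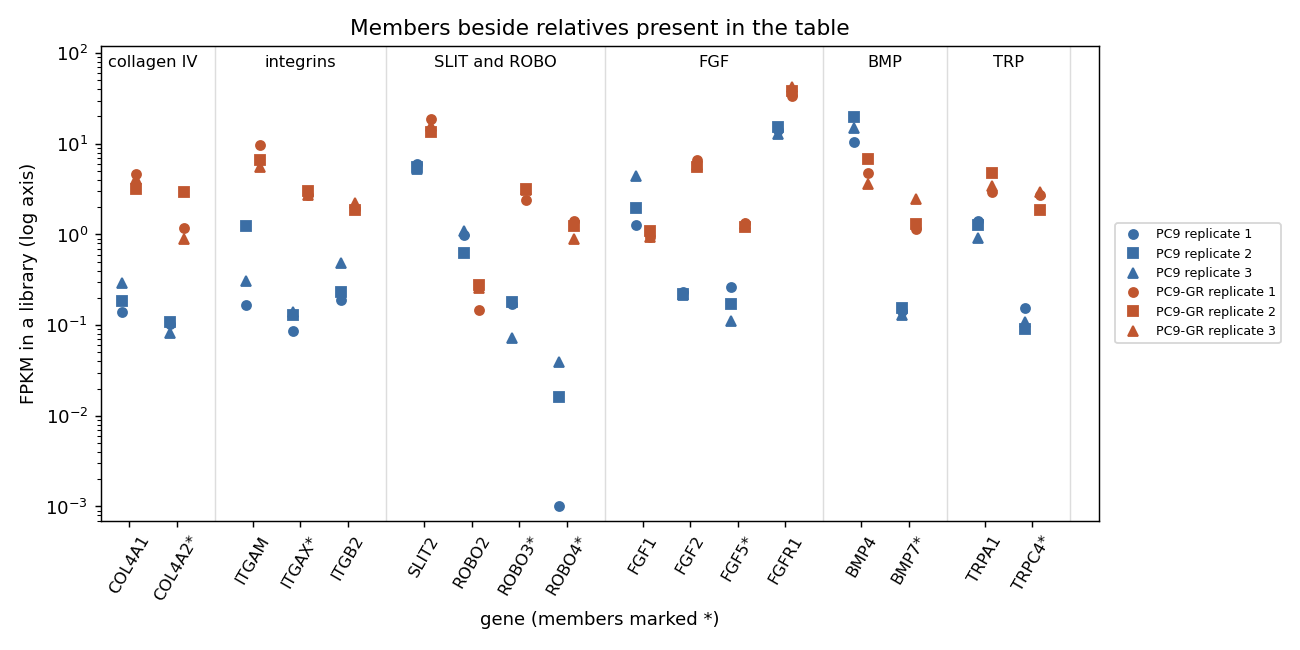
FPKM in each library (log axis) of COL4A2, ITGAX, ROBO3, ROBO4, FGF5, BMP7 and TRPC4, marked with an asterisk, beside the related genes that are in the table. COL4A1, ITGAM, ITGB2, SLIT2, FGF2, FGFR1 and TRPA1 were also higher in PC9-GR, while ROBO2, FGF1 and BMP4 had lower means there.

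Matrix genes were represented by COL4A2, MATN4 and ECM2. COL4A2 encodes a chain of type IV collagen, the network of basement membranes, and measured 0.103, 0.109 and 0.0812 FPKM in PC9 and 1.17, 2.92 and 0.886 FPKM in PC9-GR. Its highest PC9-GR library was 3.29 times its lowest. MATN4, a matrilin of loose connective tissue, measured 0.195, 0.183 and 0.122 FPKM in PC9 and 1.75, 1.61 and 1.37 FPKM in PC9-GR. ECM2 measured 0.192, 0.329 and 0.0766 FPKM in PC9 and 1.09, 1.02 and 1.67 FPKM in PC9-GR, and it had the smallest ratio of means of the 29, 6.33. For 7 of the 29 genes the table gives a locus more than 1.5 times the gene length in GENCODE 29, so those rows may hold reads of more than the gene. They are FGF5 (697159 against 70082 bp), ECM2 (372909 against 43102 bp), SSTR2 (97377 against 11622 bp), C8orf46, GALNT9, COL4A2 and MATN4.

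COL4A1, the partner chain of COL4A2, missed the PC9 limit by a small margin, with a PC9 mean of 0.205 FPKM. It was called higher, from 0.140, 0.184 and 0.291 FPKM in PC9 to 4.61, 3.16 and 4.08 FPKM in PC9-GR (limma adjusted p = 9.04e-07, n = 3, every PC9-GR library above every PC9 library). The 2 chains were unequal across the PC9-GR libraries: replicate 2 had the highest COL4A2 value and the lowest COL4A1 value. The table gives the 2 genes 1 shared locus. The sum of both was 5.78, 6.07 and 4.96 FPKM in the PC9-GR libraries, a coefficient of variation of 10.3%, against 66.4% for COL4A2 and 18.7% for COL4A1 alone. Whether fragments of the shared locus were assigned unevenly between the 2 rows was not tested.

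The 2 collagen genes start back to back. In RefSeq, GRCh38.p14, COL4A1 starts at 110307157 on the minus strand of chromosome 13 and COL4A2 at 110307284 on the plus strand, 127 bp apart. The stretch between the starts, chr13:110307158-110307283, is shown because both genes were low in PC9 and higher in PC9-GR and it lies before both. It is written on the plus strand with CCAAT and GGGCGG in capitals, and it holds 20 CG dinucleotides.
COL4A1 to COL4A2: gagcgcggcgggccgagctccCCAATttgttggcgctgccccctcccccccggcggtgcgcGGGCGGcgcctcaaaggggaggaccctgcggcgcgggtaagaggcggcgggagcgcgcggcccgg

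Among the listed matrix proteins and proteases more were called higher than lower. Of 150 listed genes, 32 are in the table on 33 rows, 29 rows were tested, 22 were called higher and 7 lower, and the median difference was 1.27 on the log2(FPKM + 1) scale. COL6A3, a collagen VI chain, was called higher, from 0.317 ± 0.0844 to 28.2 ± 0.942 FPKM (SD, n = 3), and SPARC, a collagen-binding protein, from 19.8 ± 3.43 to 232 ± 16.7 FPKM (SD, n = 3). MFAP5, a microfibril protein, was called lower, from 82.0 ± 12.9 to 5.66 ± 1.54 FPKM (SD, n = 3).

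The genes of the cytoskeleton and of GTPase control were DES, MYO16 and DOCK2. DES encodes desmin, the intermediate filament of muscle, and measured 0.271, 0.0704 and 0.157 FPKM in PC9 and 0.972, 3.60 and 2.66 FPKM in PC9-GR. PC9-GR replicate 1 was well below the other two, a 3.70-fold range. MYO16, an unconventional myosin of neurons, measured 0.145, 0.198 and 0.0657 FPKM in PC9 and 1.47, 1.25 and 0.906 FPKM in PC9-GR. DOCK2, an activator of the GTPase RAC in leukocytes, measured 0.0961, 0.152 and 0.192 FPKM in PC9 and 2.78, 3.46 and 2.34 FPKM in PC9-GR. The libraries of the lines did not overlap for DOCK2, as for all 29 genes.

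Of 61 listed muscle and contractile genes, 10 are in the table and 7 were tested, of which 6 were called higher and 1 lower, with a median difference of 1.41 on the log2(FPKM + 1) scale. ANKRD1, a stress-responsive protein of heart muscle that is also a known YAP target, was called higher, from 2.98 ± 0.675 to 14.9 ± 0.669 FPKM (SD, n = 3). ACTC1, cardiac actin, was called higher from 0.728 to 4.72 FPKM, and MYLK, the kinase of myosin light chain, from 0.403 to 3.50 FPKM. TNNI2, a troponin of fast muscle, was the gene called lower, from 22.8 to 7.79 FPKM. SPEG, a kinase of striated muscle that stands 8106 bp from DES, was called higher, from 8.83 ± 0.775 to 19.1 ± 1.03 FPKM (SD, n = 3, limma adjusted p = 1.08e-05).

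TRPC4, a cation channel opened through G protein coupled receptors, was the single ion channel of the 29. It measured 0.153, 0.0906 and 0.107 FPKM in PC9 and 2.70, 1.87 and 2.93 FPKM in PC9-GR. Of 145 listed ion channels, 25 are in the table and 12 were tested, of which 8 were called higher and 4 lower, with a median difference of 0.95 on the log2(FPKM + 1) scale. Without the filter 18 were called higher and 7 lower, with a median of 0.41, and at 5 FPKM 3 and 1 of 4. KCNMA1, the large calcium-activated potassium channel, was called higher, from 0.447 ± 0.0773 to 5.98 ± 0.279 FPKM (SD, n = 3), as were KCNAB2, from 1.26 to 7.16 FPKM, and CNGB1, from 0.791 to 2.91 FPKM. SCNN1A, a subunit of the epithelial sodium channel, was called lower, from 75.8 to 26.8 FPKM.

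IFI16, a sensor of DNA that interferon induces in many cells, measured 0.114, 0.0705 and 0.153 FPKM in PC9 and 1.06, 2.77 and 2.40 FPKM in PC9-GR. PC9-GR replicate 1 was the lowest for IFI16, and the other two libraries lay close together. Of 72 listed innate immune and interferon genes, 15 are in the table and 14 were tested, of which 10 were called higher and 4 lower, with a median difference of 1.37 on the log2(FPKM + 1) scale. NLRP1, an inflammasome sensor, was called higher, from 1.90 to 15.2 FPKM, as were IFI44, from 0.796 to 5.43 FPKM, and the complement proteases C1R, from 4.01 to 21.7 FPKM, and C1S, from 0.492 to 4.06 FPKM. For C1R and C1S, as for IFI16, PC9-GR replicate 1 was the lowest PC9-GR library, at 12.5 and 2.89 FPKM.

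No role is given here for C8orf46 and RP11-383H13.1. C8orf46, named VXN in GENCODE 29, measured 0.0010, 0.0403 and 0.233 FPKM in PC9 and 0.325, 0.586 and 2.10 FPKM in PC9-GR. Its PC9-GR mean of 1.00 FPKM was reached through replicate 3 alone, and without that library it drops under the limit. RP11-383H13.1 measured 0.343, 0.0446 and 0.157 FPKM in PC9 and 1.80, 2.40 and 2.45 FPKM in PC9-GR. The deposited table types it as protein coding, but GENCODE 29 lists its identifier as the antisense RNA MSC-AS1, and the other 28 genes are protein coding in both.

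**Figure D3:**
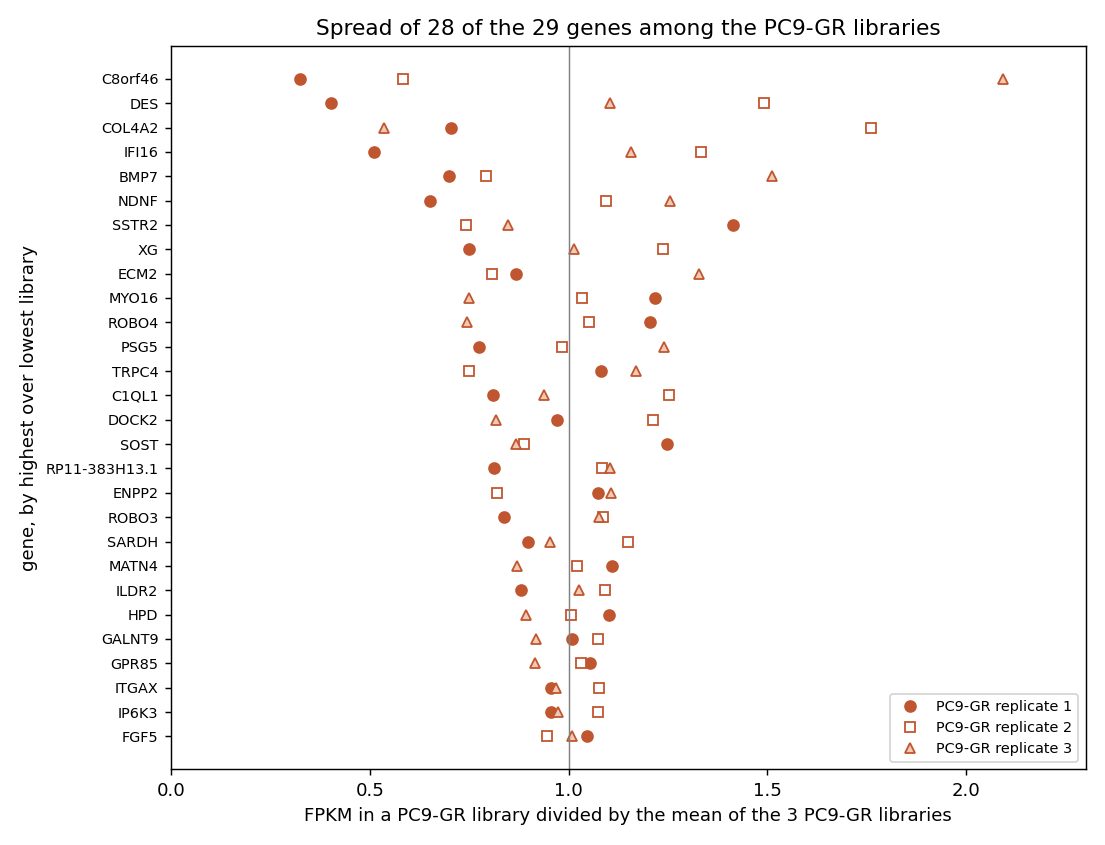
FPKM of 28 of the 29 genes in each PC9-GR library divided by the gene's mean over the 3 PC9-GR libraries (x, linear axis), with genes ordered by their highest over lowest library. The highest library is more than 2 times the lowest for C8orf46, DES, COL4A2, IFI16 and BMP7, and the median ratio over the 29 genes is 1.48.

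The replicate spread in PC9-GR differed widely between genes. The coefficient of variation over 3 libraries ran from 5.16% for FGF5 to 95.4% for C8orf46, with a median of 21.4%, beside 17.7% for the 186 other higher coding rows in the same range of PC9-GR means. In PC9, where values are nearer the floor, it ran from 8.73% to 136% with a median of 38.8%. PC9-GR replicate 1 was the lowest PC9-GR library for 14 of the genes, replicate 2 for 5 and replicate 3 for 10. PC9-GR replicate 2 was the highest for 12, replicate 1 for 9 and replicate 3 for 8, so no library held the highest value throughout.

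Neighbours in the order of means did not separate beyond this spread. HPD, GALNT9, ROBO3, DOCK2 and ITGAX, the 5 highest, had PC9-GR means from 2.83 to 3.22 FPKM and overlapping libraries. At the lower end ENPP2, GPR85, SOST and C8orf46 had means from 1.00 to 1.09 FPKM and also overlapped.

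**Figure D4:**
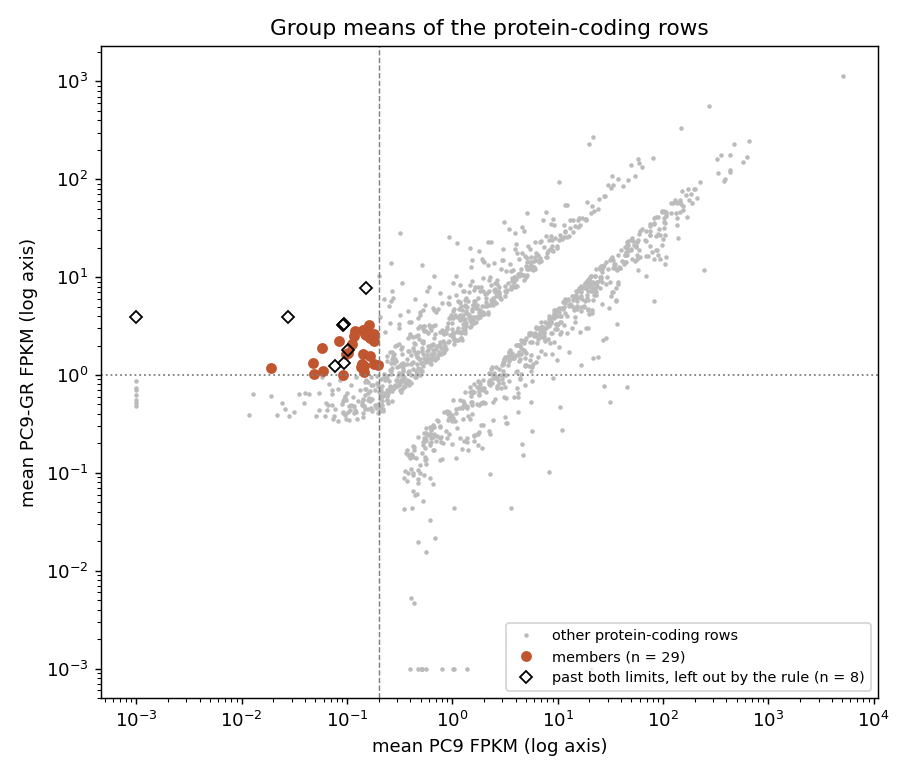
Mean FPKM in PC9 (x, log axis) against mean FPKM in PC9-GR (y, log axis) for the coding rows of the table, with the 29 genes as filled circles, the 8 coding rows left out by name or chromosome as open diamonds and the 2 limits as lines. Other higher rows lie on both sides of each limit, close to the 29 genes.

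Genes on either side of the limits had similar values. Just inside the PC9 limit lay ECM2 with 0.199, FGF5 with 0.182 and RP11-383H13.1 with 0.181 FPKM, and just outside lay CDH13 with 0.204, COL4A1 with 0.205 and WNT6 with 0.209 FPKM. CDH13 had a PC9-GR mean of 10.2 FPKM, above that of any of the 29 genes. Just inside the PC9-GR limit lay C8orf46, SOST with 1.02 and GPR85 with 1.06 FPKM, and just outside lay FAM65C with 0.981, HOGA1 with 0.962 and DACT3 with 0.948 FPKM.

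The rule was also applied to 2 libraries per group, and the genes it chose were read in the pair of libraries left out. The deposited table had been selected on all 6 libraries, so the pair left out is not fully separate. Without replicate 1 of each line the rule chose 31 genes, 26 of them among the 29, and in the libraries left out 26 of the 31 lay under 0.2 FPKM in PC9, 25 reached 1 FPKM in PC9-GR and 21 did both. Without replicate 2 it chose 35 genes, and 21 of them met both limits in the libraries left out. Without replicate 3 it chose 34 genes, and 18 of them did. The lowest PC9-GR value left out was 0.325 FPKM for C8orf46 in replicate 1, and 0.0848 and 0.0745 FPKM for IL24 in replicates 2 and 3.

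Some of the genes mark other cell types, namely ITGAX and DOCK2 for leukocytes, ROBO4 for endothelium and DES for muscle, so marker genes of other cells were read in the same libraries. Of 26 haematopoietic markers, 7 are in the table, and their summed level was between 21.1 and 24.9 FPKM in the PC9 libraries and between 49.4 and 60.2 FPKM in PC9-GR. CD68, a lysosomal protein, made up most of that sum, with 18.6 ± 1.05 FPKM in the PC9 libraries and 38.4 ± 3.61 FPKM in PC9-GR (SD, n = 3). Of the 7, 6 were tested and all 6 were called higher, beside 48.4% of all tested rows. ITGAX and CD74 are among the 6 and met both limits of the rule, so nothing is read from their calls. Without the filter 6 were called higher and 1 lower of all 7. LYZ, lysozyme, did not pass the filter and went from 1.09 ± 0.459 to 0.142 ± 0.125 FPKM (SD, n = 3). PTPRC, which encodes the pan-leukocyte protein CD45, is not among the selected rows and was not analysed here.

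Of 20 fibroblast and endothelial markers, PDGFRB alone is in the table, and it lay between 0.0661 and 0.143 FPKM in the PC9 libraries and between 2.38 and 3.77 FPKM in PC9-GR. Of 20 epithelial markers, CLDN1 and OVOL1 are in the table, both were called lower, and their sum was between 81.7 and 102.3 FPKM in the PC9 libraries and between 24.6 and 34.2 FPKM in PC9-GR. The table holds only rows selected as changed, so markers that were absent from both lines or unchanged cannot be seen in it. The part of other cell types in the values of the 29 genes was not tested.

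The 29 genes lay on 16 chromosomes. Chromosome 13 holds TRPC4, MYO16 and COL4A2, chromosome 17 holds SOST, C1QL1 and SSTR2, and chromosome 8 holds C8orf46, RP11-383H13.1 and ENPP2. On chromosome 13, the loci listed for COL4A2 and MYO16 are 940962 bp apart. The COL4A2 locus also covers COL4A1, so the distance to COL4A2 itself may be larger. No chromosome held more than 3.

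Next to 20 of the genes, another row of the table lay within 1000000 bp, 33 such rows in all. Of these, 4 come from ROBO3 with ROBO4 and COL4A2 with MYO16, which belong to the 29 and are higher by the rule. COL4A2 with MYO16 is counted by the locus that COL4A2 shares with COL4A1. Of the other 29 rows, 20 had a higher ratio in PC9-GR, beside 51.1% over the whole table. NDNF stands 50931 bp from TNIP3, an inhibitor of NF-kB signalling, which was called higher, from 3.01 ± 0.301 to 19.5 ± 2.41 FPKM (SD, n = 3, limma adjusted p = 3.09e-07). SARDH stands 4215 bp from the antisense RNA row DBH-AS1, which is listed at the floor in PC9 and at a mean of 0.415 FPKM in PC9-GR. Neighbours also went the other way: HPD lies between RHOF and BCL7A and MATN4 between SLPI and DBNDD2, and all 4 have a lower ratio in PC9-GR. SLPI, an inhibitor of neutrophil elastase, had a mean of 103 FPKM in the PC9 libraries and of 36.5 FPKM in PC9-GR.

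Reads of 4 genes could be split with another row, because the table gives both the same locus and the strand setting of the counting is not given in the sources used here. These are COL4A2 with COL4A1, DOCK2 with FAM196B, C8orf46 with ADHFE1, and RP11-383H13.1 with TRPA1. DOCK2 and FAM196B summed to 4.55, 4.78 and 4.21 FPKM in PC9-GR, a coefficient of variation of 6.35%, against 19.9% for DOCK2 and 17.9% for FAM196B alone. C8orf46 and ADHFE1 summed to a coefficient of variation of 32.0%, against 95.4% and 37.1%. For RP11-383H13.1 and TRPA1 the sum varied by 20.6%, between 16.3% and 25.7% for the rows alone. TRPA1, a channel for irritants, was called higher, from 1.20 ± 0.257 to 3.73 ± 0.959 FPKM (SD, n = 3, limma adjusted p = 0.000157). FPKM is scaled by transcript length, so a sum of FPKM is no count of fragments, and nothing on assignment is read from these spreads. Because the table gives such rows the same locus, their FPKM are less certain one by one. Assignment between such rows was not tested.

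Promoter windows were read from RefSeq, GRCh38.p14, from 250 bases before to 50 after each start, which is 300 bases. Symbols matched for 20 of the 29 genes with 30 windows, and 9 genes had more than 1 window. The genes without a window include BMP7, C1QL1, C8orf46, DES, ENPP2, ITGAX, NDNF and RP11-383H13.1. A window was called CpG-rich when its observed over expected CG count reached 0.6 and its GC content 50%.

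CpG-rich windows made up 10 of the 30, or 33.3%, and lay at 8 of the 20 genes. The share was 46.5% of 200 windows for the other higher coding rows in the same range of PC9-GR means, 52.2% of 715 for all other higher coding rows, 54.5% of 718 for the lower coding rows and 46.9% of all 35114 RefSeq windows. The median observed over expected CG ratio was 0.440 for the 29 genes' windows, 0.579 for higher rows in the same range and 0.579 for all windows. Counted per gene, a CpG-rich window was found at 40% of the 20, at 61.1% of the higher rows in the same range, at 63.8% of all other higher rows, at 71.0% of the lower rows and at 50.2% of all RefSeq genes. With the limit at 0.4 the windows of the 29 genes gave 15 of 30, beside 60% in the same range, 63.8% of the other higher rows, 62.8% of the lower rows and 54.4% of all. With 0.75 they gave 6 of 30, beside 30.5%, 37.8%, 41.4% and 36.6% in the same order. These shares rest on few windows, several of them from 1 gene, and they were not tested.

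**Figure D5:**
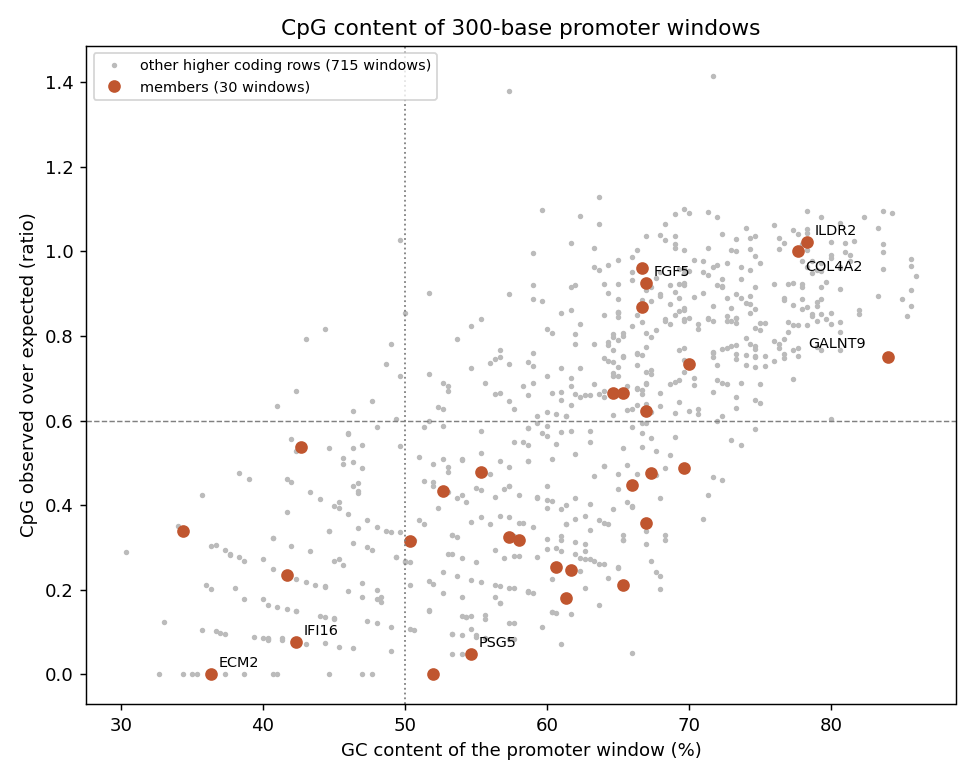
GC content (percent) and observed over expected CG ratio of RefSeq promoter windows of the 29 genes, beside those of other coding rows with a higher ratio, with the 0.6 and 50% limits drawn. Windows of the 29 genes run from 0, at ECM2 and at a second start of ILDR2, to 1.02 at the richest start of ILDR2. Some windows of the other rows lie higher.

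The genes fell at both ends of the CG scale. ILDR2 and COL4A2 reached 1.02 and 1.00, HPD 0.960 and FGF5 0.926 at their richest start, while PSG5 had 0.0474, IFI16 0.0769 and 0.235 at its 2 starts, and ECM2 had 0. Some genes had starts of both kinds: HPD had 0.960 and 0.179, ILDR2 had 1.02 and 0, and FGF5 had 0.926 and 0.316. Which start was used cannot be read from FPKM per gene. The CG-rich starts of ILDR2 and FGF5 and the CG-poor starts of PSG5 and ECM2 are shown to make the contrast visible. Each is given as the 120 bases just before the start, on the strand of the gene, with every CG in capitals.
ILDR2: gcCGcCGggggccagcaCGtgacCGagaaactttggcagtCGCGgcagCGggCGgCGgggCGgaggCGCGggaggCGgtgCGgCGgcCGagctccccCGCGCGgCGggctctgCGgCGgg
FGF5: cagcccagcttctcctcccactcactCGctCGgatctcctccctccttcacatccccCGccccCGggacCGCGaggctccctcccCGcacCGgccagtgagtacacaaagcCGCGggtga
PSG5: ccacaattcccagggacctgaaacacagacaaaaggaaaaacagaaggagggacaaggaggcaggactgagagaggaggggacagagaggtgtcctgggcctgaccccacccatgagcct
ECM2: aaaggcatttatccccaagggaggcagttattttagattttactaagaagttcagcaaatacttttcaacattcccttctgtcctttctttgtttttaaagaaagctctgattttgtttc

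These stretches lie at chr1:166975541-166975660 on the minus strand for ILDR2, chr4:80266468-80266587 on the plus strand for FGF5, chr19:43186537-43186656 on the minus strand for PSG5 and chr9:92535991-92536110 on the minus strand for ECM2. ILDR2 holds 22 CG dinucleotides there and FGF5 10, while PSG5 and ECM2 hold 0. The PC9-GR means did not follow this order, at 1.90 FPKM for ILDR2, 1.29 for FGF5, 1.70 for PSG5 and 1.26 for ECM2.

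Short motifs were searched as letters on both strands of the windows, where N stands for any base and matches of different motifs may overlap. TATAAA was found in 13.3% of the 30 windows and in 11.5% of all RefSeq windows, and the AP-1 letters TGANTCA in 3.33% and 7.71%. The E-box CAGGTG was found in 23.3% and 20.6%, and the TEAD letters GGAATG in 3 of the 30 windows and in 4928 of the 35114. CCAAT was found in 26.7% and 34.6%, and the GC box GGGCGG in 15 of the 30 windows and in 45.0% of all. One window is 3.33% of the 30, so each difference from the background amounts to a few windows at most.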

How the data were processed

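RNA was measured in 3 libraries each of PC9 and PC9-GR, total RNA taken with Trizol and prepared with a strand-specific Agilent SureSelect kit, per the labels' protocols. The submitters' processing notes name TopHat and Cufflinks. Which versions, build, annotation and strandedness option the authors chose is not given in the sources used here. Per the file headers, the authors deposited FPKM for each library and each group, a ratio of PC9-GR over PC9 with its log2, and for each row a p-value with a q-value. Tested on the table, every row has an absolute authors' log2 ratio of at least 1.00, so it is a selection made on the same 6 libraries and every call from it is conditional on that choice. It holds no counts, so the depth of each library is unknown.

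The members and gene lists were chosen with earlier results of these data known, and roles were assigned from textbook function after values were seen. Every member may be named, except that the values of 1 are not reported here. In each list that holds a member, up to 4 other called genes with the largest difference are named, and relatives and neighbours in the table were added after their values were seen. Means, SD and the rule used FPKM as deposited (Python 3.11.15, pandas 2.3.3). The test was limma 3.58.1 in R 4.3.3 on log2(FPKM + 1) with a variance trend, on rows that reached 1 FPKM in 3 or more of the 6 libraries, with group as the only term, two-sided, with Benjamini-Hochberg adjustment over all tested rows and a threshold of 0.05. The log2(FPKM + 1) scale understates the change of low genes. Gene types and lengths came from GENCODE 29 by identifier, promoter windows from RefSeq by symbol, and coordinates of the table, whose build is not named, were not combined with either. Alternatives changed the limits, scaling, pseudocount, filter, replicate block and libraries.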

Additional observations from a re-analysis of the deposited data

How the results depend on the processing

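The number of genes follows the limits chosen. It was 29 as given, 8 with PC9 under 0.1 FPKM, 112 with PC9 under 0.5 FPKM, 81 with PC9-GR at 0.5 FPKM, 13 with PC9-GR at 2 FPKM, 12 with the limits met in every library and 62 with equal library totals. It was 32 with the authors' group FPKM and 24 with median-ratio scaling, which loses C8orf46, ECM2, ENPP2, GPR85 and SOST. Leaving out 1 library gave 30 to 34 genes. The genes lost were C1QL1, ECM2, DES, RP11-383H13.1 and FGF5 without a PC9 library, and SOST and C8orf46 without a PC9-GR library. Of 282 values of single genes under other settings, 66 moved by more than the spread between replicates. The 282 include 2 settings that leave the estimate unchanged, no filter and the replicate block. They also include pseudocount 0.1, which changes the scale, so the share that moved is no measure of stability. The direction of these values was fixed by the rule. Over the whole table, 584 rows were called higher and 619 lower, and at a filter of 5 FPKM 234 and 393, with none of the 29 genes left to test. Leaving out 1 library gave 588 to 628 higher and 620 to 636 lower, with 21 to 27 of the 29 passing the filter, against 20, and every one that passed called higher, which the rule and the filter require. Over all rows the median difference on the log2(FPKM + 1) scale moved by 0.20 with equal totals and by -0.08 with median-ratio scaling. Over the tested rows it went from -0.63 to 0.89 and to -0.84. CpG-rich windows numbered 10, 15 at a limit of 0.4 and 6 at 0.75. With the replicate number as a block, 586 rows were called higher and 619 lower. Same-numbered libraries correlated at -0.098, 0.082 and 0.164 in their deviations from the group means, so the numbers were not taken as pairs. FPKM without counts gives no depth, which limits what can be said of values near 0.001 FPKM.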

Other observations

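Rows that the table does not type as coding met the same limits in 16 of 330 cases, which is 4.85%, against 2.69% of the coding rows. Of the 16, 8 are typed as lincRNA, long intergenic RNAs, and 8 have no type. In 7 of them all PC9 libraries are listed at the floor of 0.001 FPKM. None of the 29 genes had that pattern, while CCL2, which the rule leaves out by name, has it. Several of the 7 rows have short loci, such as RP11-369J21.11, listed from 81777468 to 81777667 on chromosome 10. Row length was not taken into account in these shares. AC104654.2, a lincRNA on chromosome 2, measured 0.0682, 0.207 and 0.0709 FPKM in PC9 and 2.03, 1.90 and 1.86 FPKM in PC9-GR, with little spread. CTD-2396E7.10 on chromosome 19 measured 0.0792, 0.0563 and 0.149 FPKM in PC9 and 3.26, 5.34 and 4.04 FPKM in PC9-GR. LINC00601 on chromosome 10 measured 0.262, 0.0695 and 0.0010 FPKM in PC9 and 3.06, 2.59 and 1.93 FPKM in PC9-GR.

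Several of these rows pass through 1 or 2 libraries. C1orf132 measured 9.03 FPKM in PC9-GR replicate 1 and 0.112 and 0.101 FPKM in the others, against 0.110, 0.0800 and 0.0688 FPKM in PC9. AL050335.1 measured 28.2 and 14.5 FPKM in PC9-GR replicates 1 and 3 and is listed at the floor in replicate 2. Its locus is short, listed from 15149929 to 15150030 on chromosome 6, so few fragments can give a large FPKM. These rows were picked after their values were seen and were not tested.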
